A study of Homo sapiens with 9 samples.

Results

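ETS factors are transcription factors that share a DNA-binding domain, the ETS domain, and bind DNA around a GGAA core. Here 10 genes of the family are described in HaCaT, a human keratinocyte line that became immortal without an introduced oncogene: FLI1, ERG, ETV1, ETV4, ETV5, ETS1, ETS2, ELK3, ELF3 and EHF. They are the rows of the deposited count table that carry these symbols, 10 of 21170 features, and they were picked with earlier results of these same libraries in view. Their differences between groups are therefore given as a description, without p-values of their own. Of the 10 genes, 8 had enough counts to enter the fit across 13713 genes, and ETV1 and ERG did not.

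Poly(A) RNA was sequenced in 9 libraries, 3 in each of 3 groups of HaCaT cells: those with an empty vector (Vector), those overexpressing wild-type FTO (FTO), and those overexpressing an FTO mutant without intact demethylase activity (mut-FTO). The FTO protein takes methyl groups off adenosines in RNA. The labels name no other treatment, time or selection and do not say how the constructs were delivered. No source says whether replicates were grown as separate cultures, so the spread between them may be technical, and a construct's effect and any other feature of a group's cells cannot be told apart.

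Part of the family acts downstream of growth factor receptors. The kinase ERK phosphorylates several ETS factors. Transcription of the PEA3 subfamily (ETV1, ETV4 and ETV5) is held down by the repressor CIC, which ERK signalling relieves, and the ubiquitin ligase COP1 marks PEA3 proteins for breakdown. FLI1 and ERG are best known from blood and endothelial cells, while ELF3 and EHF are factors of epithelia that act on differentiation genes of the epidermis.

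Depth ranged from 32222203 to 37846027 counts per library. The FTO gene stood at 18.4, 17.0 and 25.8 CPM (counts relative to library size, scaled by TMM factors) in Vector, while the FTO libraries were at 69.6, 77.1 and 62.6 and those of mut-FTO at 49.7, 82.7 and 64.2. This tells Vector from both expressing groups, but only the letters of the column names separate FTO from mut-FTO. Vector replicate 3 and mut-FTO replicate 2 stood apart from the other libraries. Mitochondrially encoded genes took 14.97% and 7.45% of their counts, against 3.80% to 5.77% in the other 7 libraries, and assembled loci without a gene name took 2.498% and 3.17%, against 0.689% to 0.874%. Among the 20 ETS genes with enough counts to be tested, Vector replicate 3 was the highest Vector library for 12 and the lowest for 5. It differed from the mean of the other 2 Vector libraries by more than 1.5-fold for 8 of them. Values without these libraries are given where they bear on a result.

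The cells carried keratinocyte markers. The summed level of 8 such genes, among them KRT5 and KRT14, was 10200 to 12450 CPM in Vector, 11860 to 12630 in FTO and 16180 to 21020 in mut-FTO. In mut-FTO against Vector, 3 of the 8 were called higher by the edgeR test, where 3.27% of all genes were. Another 2 of the 8 had log2 values below 0. Of these, TP63 was lower in all mut-FTO libraries than in Vector (log2 −0.50, SE 0.20, not called). Because FLI1 and ERG mark endothelial and blood cells, markers of those cells were read as well. The 10 endothelial markers summed to 1.75 to 6.40 CPM in Vector, 2.55 to 3.19 in FTO and 1.56 to 2.85 in mut-FTO. Of these 10, PECAM1, CLDN5, EMCN and TIE1 had no count in any Vector library, while the others had some. EGFL7 had the highest mean in Vector, 3.24 CPM. KDR had 14, 2 and 0 counts over the libraries of Vector, FTO and mut-FTO. The 10 leukocyte markers summed to 13.5 to 21.3, 20.2 to 22.7 and 30.3 to 36.5 CPM in the same order, with PTPRC and TYROBP at 0 in all Vector libraries. CD14, the leukocyte marker that rose in mut-FTO (log2 1.01, adjusted p = 0.00600 by edgeR), gave most of that sum. CDH5, which encodes the cadherin of endothelial junctions, was lowest in mut-FTO like FLI1 but was not called: it was at 0.935, 1.57 and 0.818 CPM in Vector, 0.691, 1.02 and 0.401 in FTO, against 0.108, 0.339 and 0 in mut-FTO (mut-FTO against Vector, log2 −2.91, adjusted p = 0.0528 by edgeR). The Vector and FTO libraries of CDH5 overlapped. Its part in the FLI1 values was not tested.

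FLI1 went from a low level in Vector to almost nothing in mut-FTO, with FTO between. It was at 2.89, 2.15 and 3.44 CPM in the Vector libraries, 0.930, 0.805 and 0.772 in FTO, against 0, 0.0679 and 0 in mut-FTO. In raw counts these are 99, 77 and 122, then 35, 30 and 27, then 0, 2 and 0. All Vector libraries were above all FTO libraries, and all FTO libraries above all mut-FTO libraries. Over each group's total counts, FLI1 was 3.46-fold higher in Vector than in FTO (exact 95% interval 2.73 to 4.42). Against mut-FTO, whose 2 counts all came from replicate 2, it was 150.0-fold higher in Vector (41.2 to 1244) and 43.4-fold higher in FTO (11.7 to 364). The intervals leave out the spread between libraries and take each count as 1 independent molecule. That may not hold, because the reads carry no molecular identifiers and PCR copies count as molecules, so the intervals may be too narrow. The fitted log2 fold change of mut-FTO against Vector was −6.91 (SE 0.70). It went to −9.67 without mut-FTO replicate 2, when the group had no count left, so the fitted value measures no exact size. FLI1 was called lower in mut-FTO than in Vector, and higher in FTO than in the mutant group (log2 5.15, SE 0.73), by the fit of all 9 libraries and by each of its 17 alternatives. FTO against Vector gave −1.75 (SE 0.45) and no call. Less RNA per cell and fewer cells with the transcript cannot be told apart in such bulk samples, here and below.

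**Figure D1:**
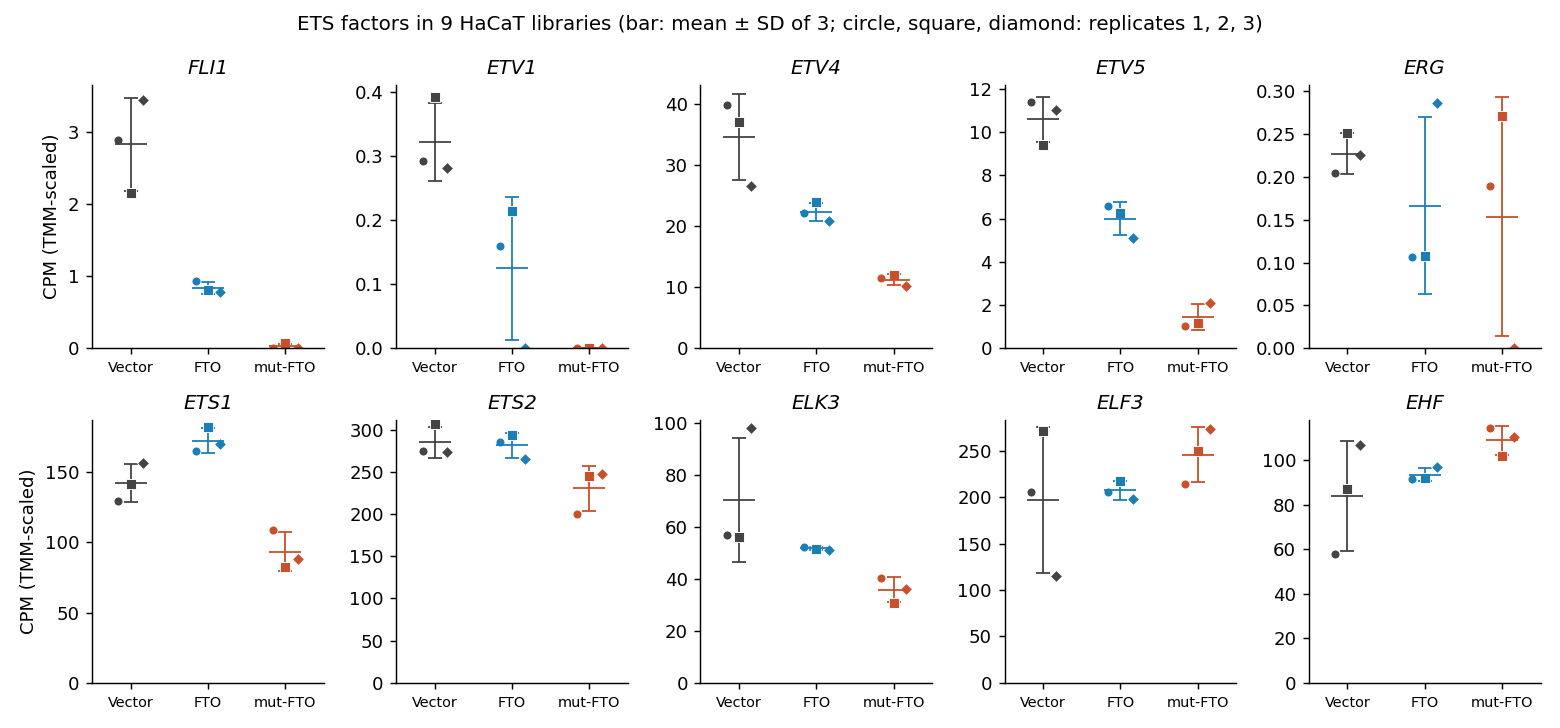
Level of each of the 10 ETS genes (vertical axes, CPM scaled by TMM factors, each from 0) in the 9 libraries, by group on the horizontal axis. Points are libraries, and bars are the mean ± SD of 3. FLI1, ETV4, ETV5 and ELK3 step down from Vector to FTO to mut-FTO without overlap, while ETS1 is highest in FTO and the 3 ERG groups overlap.

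ERG, the closest relative of FLI1, was scarcely present and showed no such order. It was at 0.205, 0.252 and 0.226 CPM in Vector, 0.106, 0.107 and 0.286 in FTO, against 0.189, 0.272 and 0 in mut-FTO. The libraries of the 3 groups overlapped throughout. Over totals of 24, 18 and 15 counts, the ratio of Vector to mut-FTO was 1.61 with an exact 95% interval of 0.811 to 3.30, so a difference was not detectable at this depth. The same held for Vector over FTO, at 1.42 (0.740 to 2.78).

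The 3 PEA3 genes were lowest in mut-FTO in every one of its libraries. ETV1, which drives tumours when fused or amplified, was the scarcest. It had 10, 14 and 10 counts in Vector, which is 0.292, 0.391 and 0.282 CPM. FTO had 6, 8 and 0 counts, or 0.159, 0.215 and 0 CPM, and no mut-FTO library had a count. All Vector libraries were therefore above all others, while FTO replicate 3 was at 0 like mut-FTO. With the mut-FTO group set at the floor of 3 counts, the ratio of total counts was 11.4 for Vector over mut-FTO and 4.40 for FTO over mut-FTO. Neither is a firm lower limit, because the spread between libraries is left out and a count may not be 1 independent fragment. The ratio of Vector to FTO was 2.59, with an exact 95% interval of 1.36 to 5.23 that has the same limits. With so few counts ETV1 was below the filter of the fit of all 9 libraries. ETV1 passed that filter in some fits that left out a library, and 1 of these, the fit without FTO replicate 3, called it lower in mut-FTO than in Vector. The fit with no filter made no call for ETV1. Its log2 fold changes there were −1.34 (SE 1.36) in FTO against Vector and −6.52 (SE 1.996) in mut-FTO against Vector. FTO against mut-FTO gave 5.18 (SE 1.99).

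Of the ETV1 promoters in RefSeq (GRCh38.p14, 6 start sites), the 250 bases before 1 start at chr7:13991426-13991675, minus strand, are shown because they hold a CIC octamer. CIC binds the octamers TGAATGAA, TGAATGGA, TCAATGAA and TCAATGGA. Capitals mark the octamer TGAATGGA, whose first base lies 125 bases before the start, and the 3 GGAA cores, which read TTCC on the other strand.
ETV1: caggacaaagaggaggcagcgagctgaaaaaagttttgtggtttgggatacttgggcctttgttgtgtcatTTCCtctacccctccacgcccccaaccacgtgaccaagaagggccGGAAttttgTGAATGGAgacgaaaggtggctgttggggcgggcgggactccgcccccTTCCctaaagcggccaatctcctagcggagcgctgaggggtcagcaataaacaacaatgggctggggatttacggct
The octamer TGAATGGA occurred on either strand in 0.832% of all 35116 promoter windows of this length, and any of the 4 octamers in 3.18%. ETV1 held the only such match among 17 windows of the 6 genes described here that the RefSeq table lists (ETV1, ETS2, ELF3, ELK3, EHF and ERG; FLI1, ETV4, ETV5 and ETS1 are not among them). GGAA, in contrast, was in 16 of these 17 windows and in 92.7% of all windows, and CCGGAA, the higher-affinity ETS site, in 14.5% of all. A match is a string of letters, not a site shown to be bound.

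ETV4 was at 39.9, 37.1 and 26.6 CPM in Vector, 22.1, 23.9 and 20.9 in FTO, against 11.4, 11.98 and 10.2 in mut-FTO. The groups did not overlap, although Vector replicate 3 came within a few CPM of FTO replicate 2. ETV4 was called 3.08-fold lower in mut-FTO than in Vector (log2 −1.62, SE 0.19), and FTO was called 1.99-fold above mut-FTO (log2 0.99, SE 0.19). Against Vector, FTO gave −0.63 (SE 0.19), which was not called but reached −0.81 and a call without Vector replicate 3. The call between FTO and mut-FTO was lost in each of the 6 fits that left out a library of these groups. ETV4 overlaps the helicase gene DHX8 in RefSeq, and the strand setting of the counting is not given, so reads of the pair may be mixed. DHX8 had 5241, 5858 and 5607 counts over the libraries of Vector, FTO and mut-FTO, an order unlike that of ETV4. FLI1, ERG, ETV5, ETS1 and ELK3 overlap long noncoding RNA genes in RefSeq, such as SENCR at FLI1. The deposited counts hold no row for these genes, so reads from them may be included in the members.

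ETV5 had the largest change of the better-covered members. It was at 11.4, 9.42 and 11.02 CPM in Vector, 6.59, 6.28 and 5.12 in FTO, against 1.03, 1.15 and 2.11 in mut-FTO. Every step was free of overlap, and the highest mut-FTO library lay below the lowest FTO library by more than the whole spread of either group. ETV5 was called 7.40-fold lower in mut-FTO than in Vector (log2 −2.89, SE 0.29) and, with FTO over mut-FTO, 4.18-fold higher (log2 2.06, SE 0.29), and both calls were kept in all 17 alternatives. FTO against Vector gave −0.82 (SE 0.27), not called.

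ETS1 and ETS2, nuclear effectors that ERK phosphorylates, were among the most abundant members and moved less. ETS1 was at 129.0, 141.5 and 156 CPM in Vector, 165, 182 and 170 in FTO, against 109, 82.6 and 88.0 in mut-FTO. It was the single tested member whose FTO libraries all lay above the Vector libraries (log2 0.28, SE 0.15, not called). Its level in mut-FTO was called 1.53-fold lower than in Vector (log2 −0.61, SE 0.16). That call was lost in 8 of 17 alternatives, namely with only the 6 libraries compared, with the replicate number as a block, and without Vector replicate 2, any FTO library, mut-FTO replicate 2 or mut-FTO replicate 3. FTO was called 1.85-fold higher than mut-FTO (log2 0.89, SE 0.16), which was lost without any 1 of the FTO libraries or without mut-FTO replicate 2 or 3. ETS2 was at 275, 307 and 274 CPM in Vector, 286, 294 and 265 in FTO, against 199.9, 245 and 247 in mut-FTO. All mut-FTO libraries lay below the rest, but the difference from Vector was small and not called (log2 −0.30, SE 0.15).

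ELK3, a ternary complex factor that binds DNA with serum response factor and can repress, was at 56.8, 56.2 and 97.9 CPM in Vector, 52.4, 51.6 and 51.3 in FTO, against 40.3, 30.8 and 36.3 in mut-FTO. The groups did not overlap, and Vector replicate 3 was far above the other Vector libraries. ELK3 was called 1.96-fold lower in mut-FTO than in Vector (log2 −0.97, SE 0.22). Without Vector replicate 3 the difference was −0.67, still called. The call was lost with only the 6 libraries compared and without mut-FTO replicate 2 or mut-FTO replicate 3. In FTO against Vector the log2 value was −0.44 (SE 0.21), and −0.15 without Vector replicate 3.

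The ELK3 promoter is shown because ELK3 is the only called member with a listed window. It is 1 of 2 listed starts (RefSeq, GRCh38.p14), chr12:96194125-96194374, plus strand, and 82% of its bases are G or C. Capitals mark its 2 GGAA cores. It holds no CIC octamer.
ELK3: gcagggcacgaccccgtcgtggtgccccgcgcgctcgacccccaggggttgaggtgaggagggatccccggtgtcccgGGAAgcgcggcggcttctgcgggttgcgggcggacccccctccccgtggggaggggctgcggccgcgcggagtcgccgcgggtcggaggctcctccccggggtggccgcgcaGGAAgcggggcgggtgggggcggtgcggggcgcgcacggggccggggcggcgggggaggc

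ELF3 and EHF, the epithelial members, were not called in any of the 3 comparisons. ELF3 was at 206, 271 and 115 CPM in Vector, 206, 218 and 198 in FTO, against 215, 249 and 273 in mut-FTO, and the Vector libraries spanned nearly the whole range of the others. Its direction in FTO against Vector depended on Vector replicate 3: log2 0.07 (SE 0.25) with it and −0.22 without it. EHF was at 57.9, 87.2 and 107.0 CPM in Vector, 91.7, 92.2 and 96.7 in FTO, against 114, 102 and 111 in mut-FTO. All mut-FTO libraries were above all FTO libraries, but the Vector libraries overlapped both. For mut-FTO against Vector the log2 fold change was 0.32 (SE 0.25) for ELF3 and 0.37 (SE 0.20) for EHF. EHF passed the threshold in 2 alternatives, those without Vector replicate 3.

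The ELF3 promoter, the counterpart from a member that was not called, lies at chr1:202010337-202010586, plus strand (RefSeq, GRCh38.p14, its only listed start). It is 58.4% G or C, less than the ELK3 window. Capitals mark its 2 GGAA cores, of which 1 reads TTCC, and it too lacks a CIC octamer.
ELF3: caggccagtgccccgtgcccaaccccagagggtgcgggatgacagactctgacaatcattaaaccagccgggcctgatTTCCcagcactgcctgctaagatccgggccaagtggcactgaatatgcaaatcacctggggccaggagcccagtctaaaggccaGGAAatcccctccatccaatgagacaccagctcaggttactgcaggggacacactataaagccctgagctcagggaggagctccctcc

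Counted together, 5 of the 8 tested members were called lower in mut-FTO than in Vector (FLI1, ETV4, ETV5, ETS1 and ELK3) and none higher by edgeR, either at the adjusted threshold of 0.05 or at an unadjusted p under 0.05. No member was called higher by DESeq2 or limma-voom either. Of all 13713 tested genes, 7.78% were called in this comparison, 4.51% as lower and 3.27% as higher. The libraries did not overlap and lay lower in mut-FTO for 6 of 8 members, against 11.8% of all genes. In FTO against Vector, 0 of 8 members were called by edgeR, where 0.744% of all genes were. At an unadjusted p under 0.05 there were 3, all lower, where 953 of the 13713 genes were lower and 678 higher. DESeq2 called 2 (FLI1 and ETV4) among 366 genes in all, and limma-voom 0. Without Vector replicate 3 and mut-FTO replicate 2, many more genes were called altogether, 1050 of 13905 in FTO against Vector and 2401 in mut-FTO against Vector. Of the 9 members tested there, 3 were called in the first comparison (FLI1, ETV4 and ETV5, all lower), and 7 in the second, 6 lower with ETS2 among them and EHF higher. Libraries without overlap lay lower in FTO for 4 of 8 members (10.9% of all genes). Between FTO and mut-FTO, 4 of 8 members were called, all higher in FTO, where 2.33% of all genes were called and 1.20% were called higher. Libraries without overlap were higher in FTO for 6 of 8 (14.8% of all genes). The full order of Vector above FTO above mut-FTO, without overlap at either step, was seen in 4 of 8 members, FLI1, ETV4, ETV5 and ELK3, and in 2.28% of all genes. Since the members were chosen from these contrasts, their shares are set beside the background and nothing is read from the difference. The median log2 fold change of the tested members was −0.23 in FTO against Vector, −0.79 in mut-FTO against Vector and 0.71 in FTO against mut-FTO, and over all tested genes it was −0.002, −0.001 and 0.005. The 3 comparisons share libraries and are not independent of each other.

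**Figure D2:**
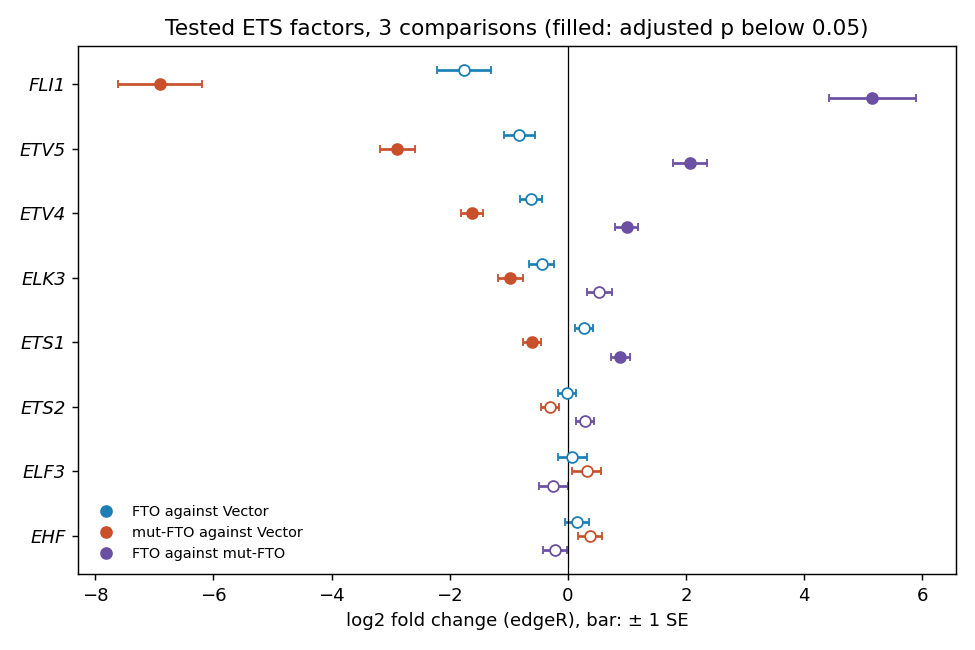
Log2 fold change (horizontal axis, edgeR, bars ± 1 SE) of the 8 tested ETS genes in the 3 comparisons, filled where the adjusted p was below 0.05. In mut-FTO against Vector 5 points are filled and all lie below 0, from −6.91 for FLI1 to −0.61 for ETS1, and in FTO against Vector no point is filled.

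Per length of exon, the order of the members differed widely from that of their changes. In Vector, ETS2 led the family at 69.9 CPM per kb, and its libraries did not overlap with those of the next gene. ELF3 (31.9), ETS1 (25.7), EHF (21.3), ELK3 (16.7) and ETV4 (12.3) followed, mixed with ELF4, ERF, ELK1 and ELF1, and neighbours in this stretch overlapped between libraries, so their order is not settled. ETV4 was set off from the genes below it, where ETV5 came at 2.45, FLI1 at 0.626, ERG at 0.0422 and ETV1 at 0.0417 CPM per kb. In FTO the same members led, with ETS2 at 69.1, ELF3 at 33.6, ETS1 at 31.1 and EHF at 23.7. In mut-FTO, ETS2 (56.6), ELF3 (39.8) and EHF (27.5) came first, and ETS1, at rank 3 in the other groups, had rank 6 at 16.8, overlapping with ELF4 and ELF1 beside it. ELK3 was at 8.52 CPM per kb in mut-FTO, ETV4 at 3.999, ETV5 at 0.330 and FLI1 at 0.00501. Shares were also taken of the summed CPM per kb of all 28 ETS genes in a library. ETS1 took 9.34% ± 0.673 in Vector, 12.1% ± 0.409 with FTO and 6.96% ± 1.47 with mut-FTO (SD, n = 3 each), without overlap. ELF3 took 11.6% ± 4.43, 13.01% ± 0.257 and 16.3% ± 1.25 in the same order, with an overlap of Vector and FTO, and EHF 7.69% ± 2.01, 9.18% ± 0.502 and 11.4% ± 1.27. Such shares are per length of exon, and the share of a gene also shifts when other genes of the family change.

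**Figure D3:**
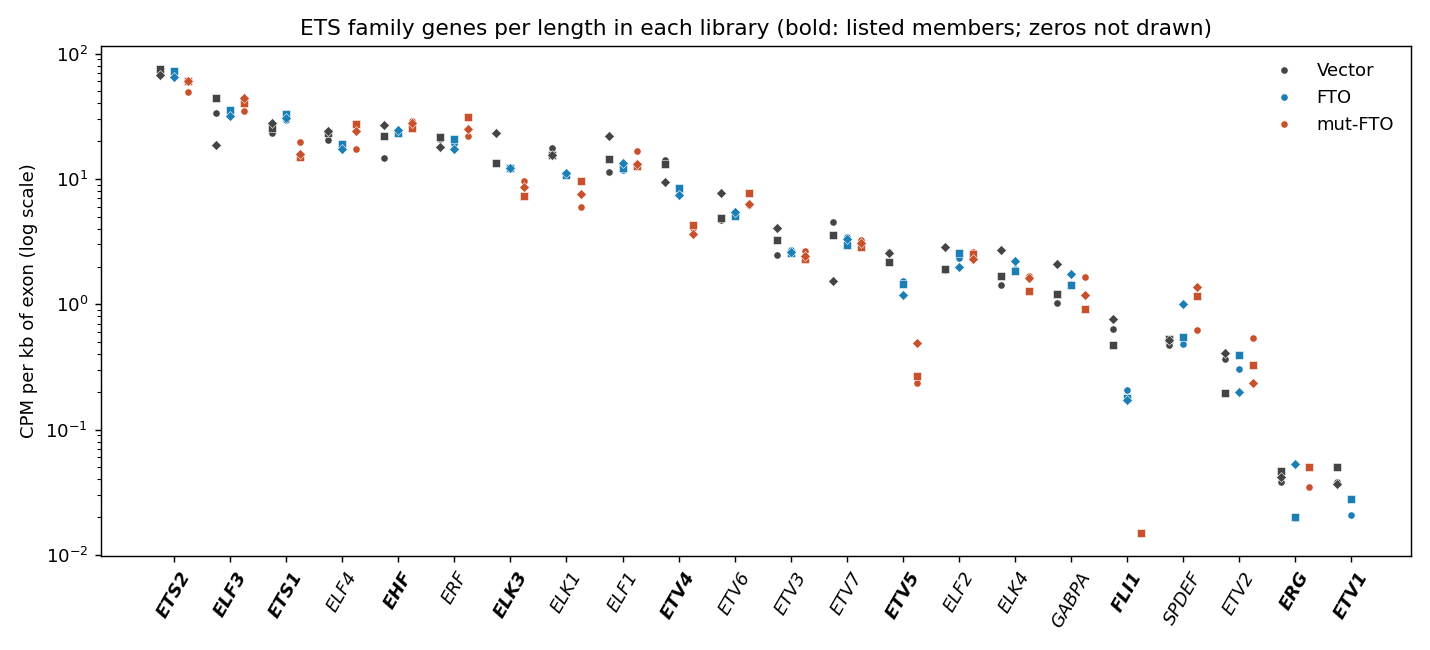
Level per length (vertical axis, log scale, CPM per kb of exon) of 22 ETS family genes in each library, ordered by their mean in Vector, with the listed members in bold and libraries at 0 not drawn. Circles, squares and diamonds are replicates 1, 2 and 3. ETS2 is highest in every group, and the FLI1 and ETV5 points spread more between groups than those of their neighbours.

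The other 18 genes of the ETS family are those left once the members had been picked, so their values are not independent of that choice. Of these 18, 12 could be tested and 6 had too few counts. By edgeR 1 of the 12 was called in mut-FTO against Vector, near the 7.78% of all genes, and 0 in FTO against Vector, where 0.744% of all genes were. ELK1, a ternary complex factor like ELK3 and a direct ERK substrate, fell in mut-FTO. It was at 51.2, 45.0 and 45.1 CPM in Vector, 31.3, 31.4 and 32.3 in FTO, against 17.5, 27.8 and 21.9 in mut-FTO, with no overlap at either step. Its log2 fold change in mut-FTO against Vector was −1.07 (SE 0.18, adjusted p = 0.00330 by edgeR's quasi-likelihood test, Benjamini-Hochberg), and the call was kept in all 17 alternatives, with an adjusted p of at most 0.0248. FTO against Vector gave −0.57 (adjusted p = 0.238, edgeR), and FTO against mut-FTO 0.50 (adjusted p = 0.222, edgeR). SPDEF, a factor of secretory epithelia, had the largest value in the other direction, 1.06 in mut-FTO against Vector (SE 0.41, adjusted p = 0.147 by edgeR), at a mean of 0.966 CPM in Vector and 2.02 in mut-FTO. ERF, a repressor that ERK expels from the nucleus, was at 0.37 (SE 0.17, adjusted p = 0.237, edgeR), with all mut-FTO libraries above the Vector libraries. For ELF1, ELF2, ELF4, ELK4, ETV2, ETV3, ETV6, ETV7 and GABPA, log2 fold changes in mut-FTO against Vector ran from −0.41 in ETV3 to 0.22 in ETV6. ELF5, ETV3L, FEV, SPI1 and SPIC had no count in any library, and SPIB had 2 counts, in mut-FTO replicate 2. The median over the 12 tested genes was −0.10 in FTO against Vector, −0.02 in mut-FTO against Vector and −0.15 in FTO against mut-FTO.

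Of 20 genes that regulate the members or work with them, none was called in FTO against Vector by edgeR (2 at an unadjusted p under 0.05, both lower) and 1 in mut-FTO against Vector, a share near that of all genes. At an unadjusted p under 0.05, 6 of the 20 were lower in mut-FTO than in Vector and 0 higher, beside 1512 lower and 1387 higher of all 13713 genes. Besides the called gene these were DET1, a partner of COP1 (log2 −0.75), GABPB1, the partner subunit of GABPA (−0.69), CBFB, the partner of RUNX proteins (−0.55), the kinase gene MAP2K1 (−0.49) and TRIB1, a COP1 adaptor (−0.44). None of these 5 was called by edgeR with all 9 libraries. DESeq2 called DET1 and GABPB1 lower, as edgeR did for DET1 and MAP2K1 without Vector replicate 3, for GABPB1 without Vector replicate 1, and for MAP2K1 without Vector replicate 3 and mut-FTO replicate 2. The list's median was −0.10 in mut-FTO against Vector. CIC, the repressor of PEA3 transcription, was at 72.1 ± 5.99 CPM in Vector and, in the expressing groups, 56.7 ± 8.90 (FTO) and 74.3 ± 19.0 (mut-FTO; SD, n = 3), a log2 difference of 0.04 between mut-FTO and Vector (SE 0.20, adjusted p = 0.930 by edgeR). COP1 differed by 0.02 and the kinase gene MAPK3 by 0.14 in the same comparison, neither of them called. RUNX1, a DNA-binding partner of ETS1, was the 1 gene called: 75.5, 83.1 and 155 CPM in Vector, 70.0, 76.3 and 61.2 in FTO, against 56.3, 51.7 and 57.2 in mut-FTO. Its log2 fold change was −0.92 (SE 0.24, adjusted p = 0.0341, edgeR). The call was lost in 8 of 17 alternatives (adjusted p from 0.0576 to 0.133), namely with only the 6 libraries compared, with the replicate block, and without any 1 of the FTO or mut-FTO libraries.

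Among 11 genes listed as outputs of ERK signalling shared with PEA3 factors, most fell in mut-FTO. Whether PEA3 factors act on each of them in these cells was not tested. In mut-FTO against Vector 6 were called lower (DUSP4, DUSP5, DUSP6, PHLDA1, CCND1 and SPRED1) and 2 higher (SPRY2 and EPHA4), where 4.51% and 3.27% of all genes were, with a median log2 fold change of −1.08 against −0.001 over all tested genes. DUSP6, the phosphatase that inactivates ERK in the cytoplasm, was at 242, 315 and 339 CPM in Vector, 249, 271 and 251 in FTO, against 146, 136 and 139 in mut-FTO. All mut-FTO libraries lay well below the rest, and Vector and FTO overlapped. It was 2.13-fold lower in mut-FTO than in Vector (log2 −1.09, SE 0.16, adjusted p = 0.00102 by edgeR). DUSP4, its nuclear relative, changed by −1.39 (SE 0.21, adjusted p = 0.00130, edgeR). PHLDA1 changed by −1.75 (SE 0.23, adjusted p = 0.000452, edgeR) and CCND1, the G1 cyclin, by −1.08 (SE 0.14, adjusted p = 0.000469, edgeR). All 4 calls were kept in all 17 alternatives, with adjusted p-values of at most 0.0133. SPRED1 and SPRY2, both ERK inhibitors, and EPHA4 had calls that were lost in 7, 10 and 4 alternatives. With only the 6 libraries compared all 3 were lost. SPRED1 was also lost without Vector replicate 2, any 1 FTO library or mut-FTO replicates 2 or 3, and EPHA4 without Vector replicate 2 or mut-FTO replicates 1 or 3. SPRY2 was lost with library size alone as the scaling, with the replicate block, and without Vector replicate 1 or any 1 FTO or mut-FTO library, with an adjusted p of up to 0.110 (edgeR). In FTO against Vector none of the 11 was called by the reported edgeR fit, although 5 were lower at an unadjusted p under 0.05, as were 953 of all 13713 genes. CCND1 came closest (log2 −0.66, SE 0.14, adjusted p = 0.0535 by edgeR), with all FTO libraries below all Vector libraries. It was called lower with RLE factors, library size alone and DESeq2, and without Vector replicate 3, alone or together with mut-FTO replicate 2. FTO was called higher than mut-FTO for 4 of the 11, where 1.20% of all genes were. For DUSP5 this held in all 17 alternatives (log2 1.77, SE 0.26, adjusted p = 0.00374 by edgeR). For DUSP4 (1.29), DUSP6 (0.88) and PHLDA1 (1.09) it was lost in 3, 5 and 6 of them, all of which left out an FTO or mut-FTO library. This list was drawn up with earlier results of these libraries known, and its direction is not independent evidence.

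The DUSP6 promoter window at chr12:89352502-89352751, minus strand (RefSeq, GRCh38.p14), is shown beside that of ETV1, because both hold a CIC octamer. Here it is TCAATGGA, read on the other strand as TCCATTGA, 24 bases before the start. This octamer was in 0.436% of all windows. Capitals mark it and 6 GGAA cores. Among the 12 listed windows of the ERK genes, 1 other held a CIC octamer, TGAATGAA in EPHA2. Any of the 4 octamers was in 3.18% of all windows. EPHA2 was not called in mut-FTO against Vector (log2 0.07), and DUSP4, DUSP5 and CCND1 have no listed window.
DUSP6: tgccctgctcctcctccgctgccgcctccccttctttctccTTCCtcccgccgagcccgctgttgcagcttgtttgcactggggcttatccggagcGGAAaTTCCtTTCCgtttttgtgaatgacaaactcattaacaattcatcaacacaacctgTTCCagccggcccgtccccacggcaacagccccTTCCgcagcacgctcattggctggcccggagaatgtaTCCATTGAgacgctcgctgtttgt

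Protease and matrix genes with known ETS sites moved in both directions. Of 13 tested, 4 were called lower in mut-FTO against Vector (MMP3, MMP7, MMP9 and FN1) and 1 higher (MMP13), where 4.51% of all genes were called lower and 3.27% higher. MMP7, matrilysin and a PEA3 target in epithelial tumours, was at 48.5, 49.6 and 48.2 CPM in Vector, 38.8, 34.1 and 47.9 in FTO, against 21.9, 21.1 and 20.5 in mut-FTO, which is 2.31-fold lower in mut-FTO (log2 −1.21, SE 0.17, adjusted p = 0.000741 by edgeR). MMP9, gelatinase B, fell in both expressing groups, by 2.77 on the log2 scale in FTO (adjusted p = 0.00569, edgeR; 0.0539 without FTO replicate 3) and by 2.40 in mut-FTO (adjusted p = 0.00209, edgeR). MMP13, collagenase 3, rose 5.11-fold in mut-FTO (log2 2.35, SE 0.31, adjusted p = 0.000504, edgeR) with all mut-FTO libraries, at 353 to 417 CPM, above the highest Vector library at 124. FN1, the fibronectin gene named in the study's title, showed log2 values of −3.0 in FTO and −4.98 in mut-FTO (adjusted p = 5.57e-05 and 2.90e-07, edgeR). The call of MMP3 was lost in 4 alternatives, with only the 6 libraries compared and without any 1 mut-FTO library. The list's median was −0.28 in FTO against Vector and −0.22 in mut-FTO against Vector.

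Of 11 tested epithelial genes tied to ELF3 and EHF, 4 were called higher in mut-FTO against Vector, where 3.27% of all genes were, and none lower by edgeR (1 lower at an unadjusted p under 0.05). The 4 genes were SPRR1A, SPRR1B and SPRR2A, precursors of the cornified envelope, and KRT4, a keratin of mucosal epithelia. SPRR2A was at 12.5, 8.50 and 10.01 CPM in Vector, 17.6, 20.8 and 21.0 in FTO, against 64.3, 66.8 and 64.2 in mut-FTO. Its log2 fold change in mut-FTO against Vector was 2.65 (SE 0.19, adjusted p = 5.43e-06 by edgeR). In FTO against Vector it was 0.94 (adjusted p = 0.0349, edgeR), a call lost in 9 of 17 alternatives with adjusted p up to 0.228, namely with only the 6 libraries compared, with the replicate block, and without any 1 library other than Vector replicates 1 and 3. SPRR2 genes are near-identical copies, and how their reads were divided is not known. KRT4 rose in both groups, by 1.81 in FTO and 2.85 in mut-FTO (adjusted p = 0.000784 and 3.04e-06, edgeR), and both calls were kept in all 17 alternatives. SPRR1A was at 2.58 (adjusted p = 0.00118, edgeR) and SPRR1B at 2.87 (adjusted p = 0.000424, edgeR) in mut-FTO against Vector. The same 4 genes were called lower in FTO than in mut-FTO, as were 155 of all 13713 genes. SPRR2A kept this call in all 17 alternatives, and KRT4, SPRR1A and SPRR1B lost it in 4, 5 and 4, all without an FTO library or mut-FTO replicate 2 or 3. LCN2, lipocalin 2, lay the other way. It was at 2010, 2014 and 2151 CPM in Vector, 1541, 1548 and 1582 in FTO, against 1246, 1738 and 1180 in mut-FTO, and all Vector libraries were above the rest. Its log2 value in mut-FTO against Vector was −0.57 (SE 0.17, adjusted p = 0.0718 by edgeR), but LCN2 was called lower with library size alone, DESeq2 and limma-voom, and without Vector replicate 3, mut-FTO replicate 2 or both. The list's median was 0.23 in FTO against Vector and 1.87 in mut-FTO against Vector. The latter is the value of FLG, which was not called (SE 0.87, adjusted p = 0.241 by edgeR). Of the 11 values in mut-FTO against Vector, 4 were below 0. They were LCN2, KRT8 (−0.54), TGFBR2 (−0.08) and CLDN4 (−0.05), and CLDN7 was at 0.16, so the median describes no typical gene of the list.

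Serum response factor shares targets with ternary complex factors such as ELK1 and ELK3. Of 10 such genes, FOS and EGR1 among them, 0 were called in FTO against Vector and 0 in mut-FTO against Vector by edgeR, where 0.744% and 7.78% of all genes were, and at an unadjusted p under 0.05 there were 1 higher and 1 lower in the first and 3 lower in the second. The list's median in mut-FTO against Vector was −0.38, with 9 of 10 values below 0. Of all 13713 genes, 6876 had values below 0 in that comparison and 1512 were lower at an unadjusted p under 0.05. EGR1 stood at a log2 value of −0.83 (SE 0.25, adjusted p = 0.0606 by edgeR) and FOS at −0.23. EGR1 was called lower with library size alone, DESeq2, no filter and the replicate block, and without Vector replicate 1. CCN1, a matrix-associated protein listed under its older symbol CYR61, exceeded its mut-FTO level in FTO (log2 0.92, SE 0.19, adjusted p = 0.0225 by edgeR). That call was lost in 5 alternatives, each without an FTO or mut-FTO library.

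**Figure D4:**
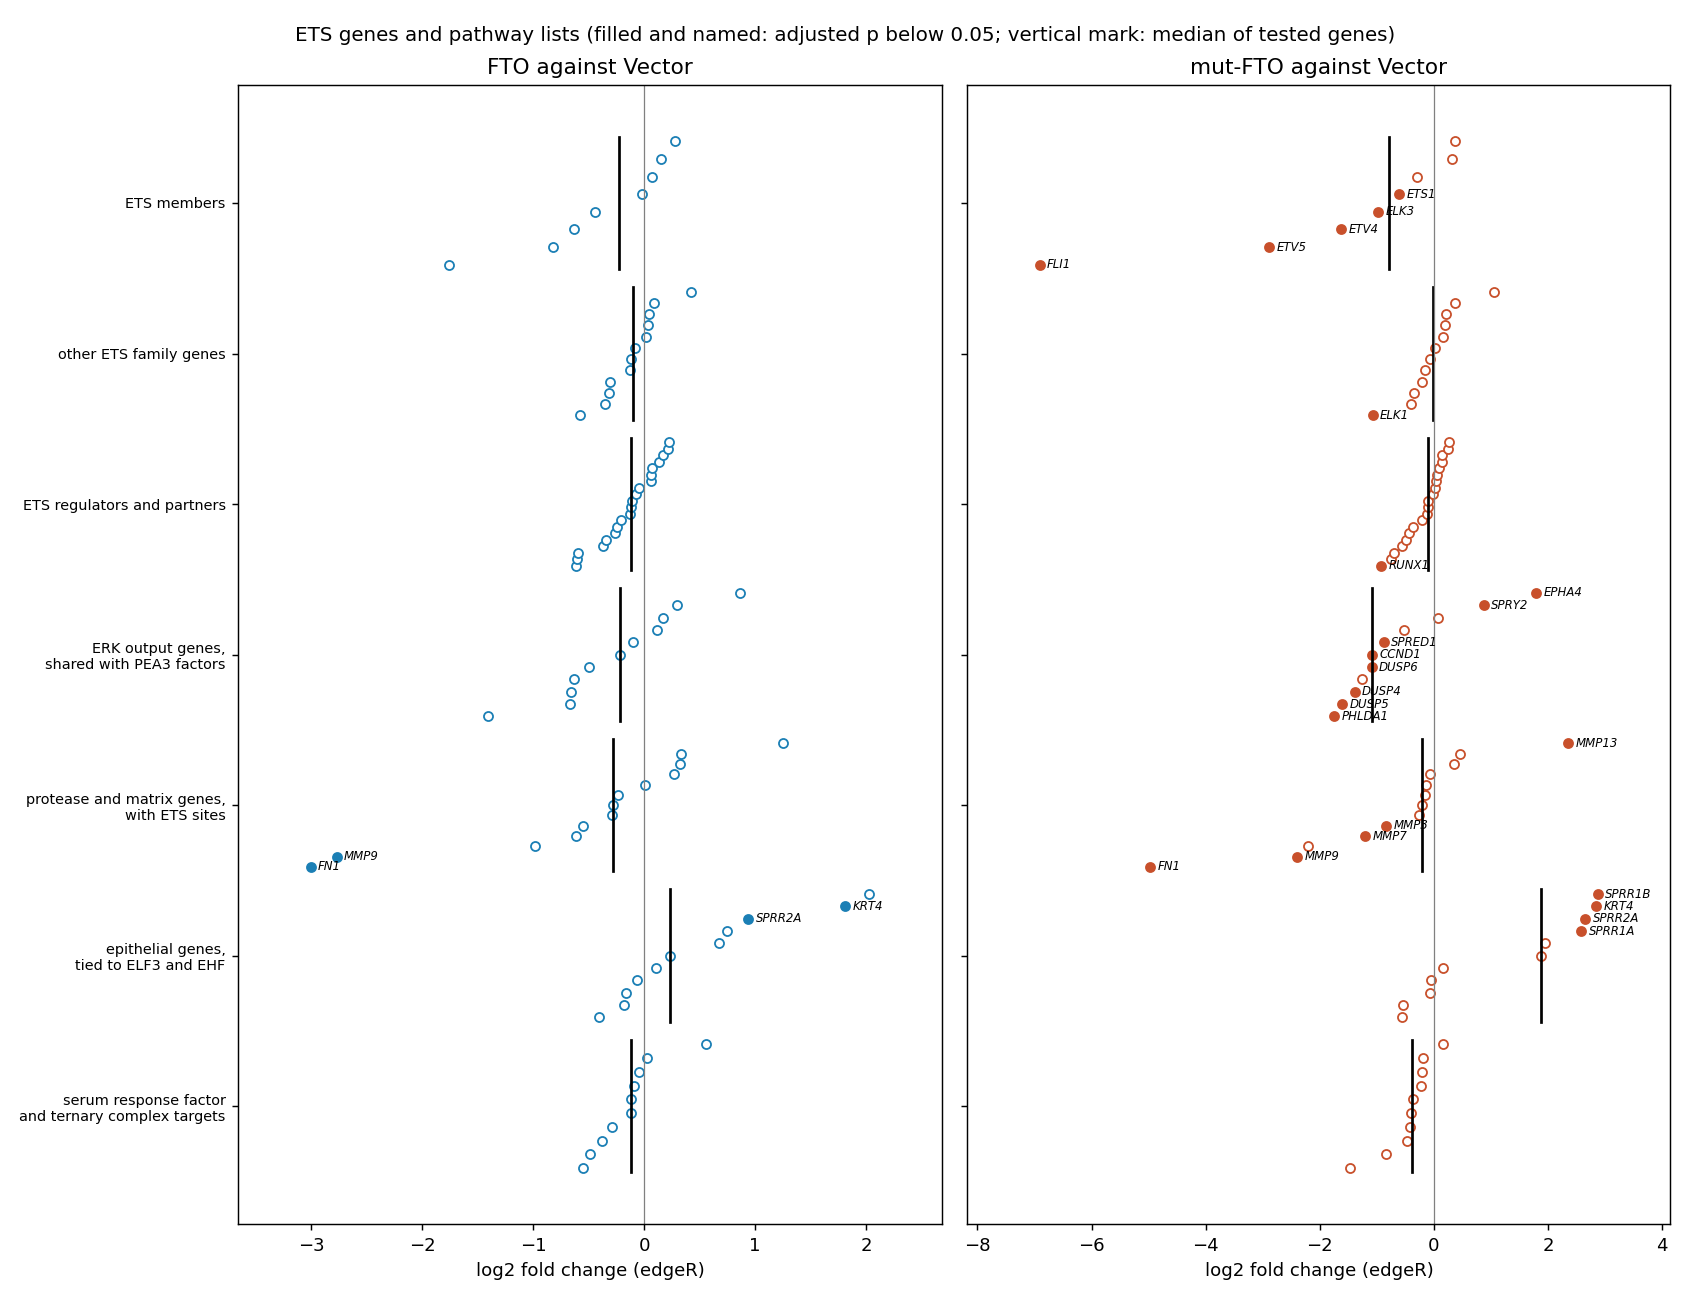
Log2 fold changes (horizontal axis, edgeR) of the tested genes of the ETS members, the other ETS family genes and 5 pathway lists (vertical axis), in FTO against Vector and in mut-FTO against Vector. Filled and named points had an adjusted p below 0.05, and vertical marks are medians. In mut-FTO against Vector the ERK output genes have a median of −1.08 and the epithelial genes one of 1.87. The epithelial median is the value of FLG, which was not called, and 4 of the 11 epithelial values lie below 0.

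Genes whose levels followed FLI1 closely over the 9 libraries, among the 5 of highest likeness, were FTSJ1, which encodes an RNA methyltransferase (Pearson r = 0.992 on log2 CPM), IL1B, the interleukin 1 beta gene (0.992), FGD1, an exchange factor for Cdc42 (0.992), and ADAM19, a membrane-bound metalloprotease (0.990). IL1B had group means of 409 (Vector), 216 (FTO) and 46.9 CPM (mut-FTO). ETV1 was followed most closely by ROR2, a Wnt receptor (0.979), NBPF20 (0.969), SH2D2A, a T cell adaptor (0.961), AFAP1L1 (0.958) and F5, coagulation factor V (0.956). ROR2, SH2D2A and F5 were, like ETV1, at 0 in all mut-FTO libraries and at 1.11, 1.26 and 1.78 CPM on average in Vector. NBPF20 belongs to a family of near-identical copies. These r values describe 9 libraries that fall into 3 groups, so they mostly restate the order of the group means, and they were taken from the highest among all tested genes with a group mean of at least 1 CPM.

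Alternatives moved some members more than others. Leaving out Vector replicate 3 shifted ELF3, ELK3, EHF and ETV4 most in the comparison of FTO with Vector. ETV5 kept log2 fold changes from −3.28 to −2.69, and ETV4 from −1.86 to −1.51, over all alternatives of mut-FTO against Vector.

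**Figure D5:**
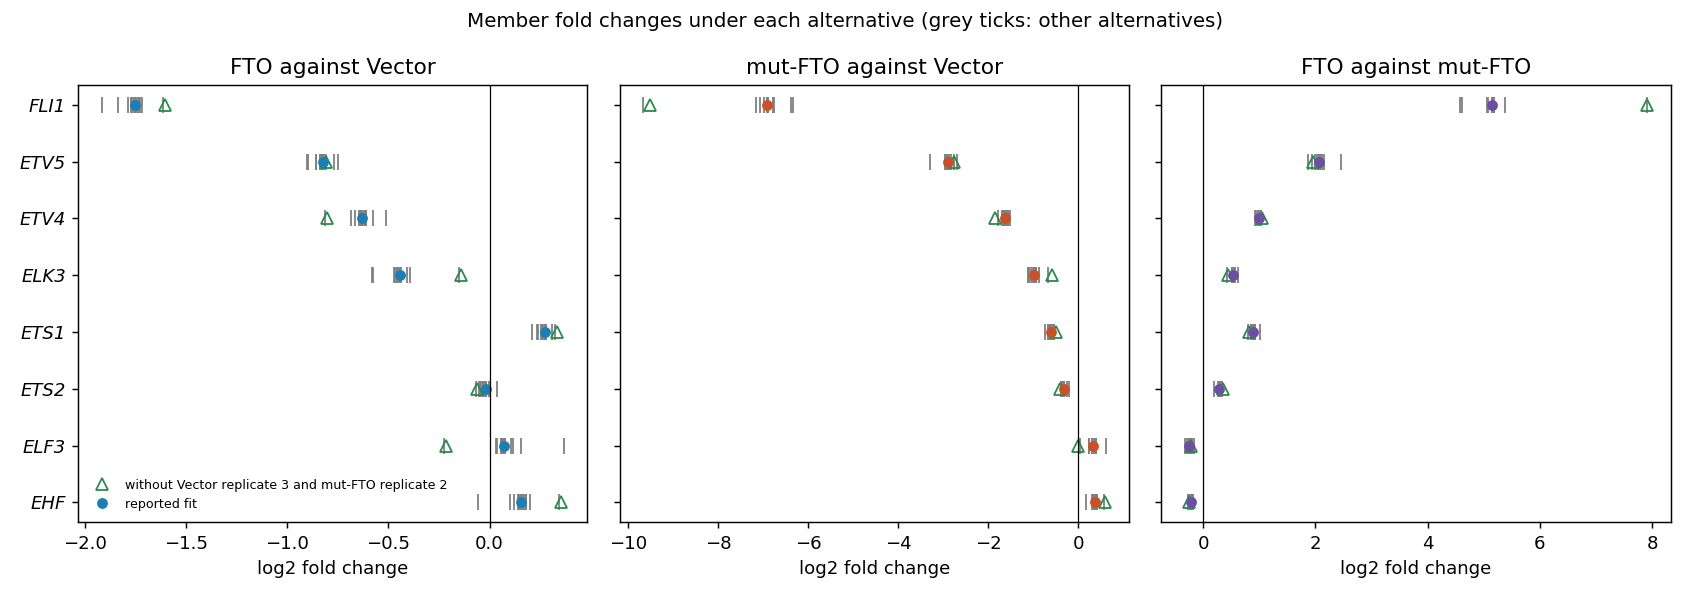
Log2 fold change (horizontal axes, a scale for each comparison) of the 8 tested members as reported (filled points), under each of 17 alternatives (grey ticks), and without Vector replicate 3 and mut-FTO replicate 2 (triangles). FLI1, ETV4, ETV5, ETS1 and ELK3 stay below 0 in mut-FTO against Vector throughout, and ELF3 lies on both sides of 0 in FTO against Vector.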

How the data were processed

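Poly(A) RNA of HaCaT cells was sequenced in 9 libraries, grouped by the sample titles. The authors deposited 1 table of whole-number counts per gene, without normalization. HISAT2 and StringTie are the tools listed in the submitters' processing notes. Their versions, the annotation and the counter with its strandedness are unstated in those notes. The build listed is mm10 (mouse) although the symbols are human, so no gene coordinates from the counting are used. Table columns were matched to groups by their letters and numbers. Of 21170 features, 1441 are assembled loci without a gene name. Counts of 1 were rarer than counts of 2 in each library, so a count may not be 1 independent fragment. No 2 libraries of a group agreed within sampling noise (chi-square test), so none was treated as a repeat.

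Tests used edgeR 4.0.16 (R 4.3.3): filterByExpr by group (minimum count 10, minimum total 15; 13713 genes kept), TMM factors, robust quasi-likelihood fit of all 9 libraries with a term per group, and Benjamini-Hochberg adjustment over the genes kept, with a threshold of 0.05. Each standard error is the log2 fold change over the root of its F statistic. The script was tested on simulated data. Ratios of total counts carry exact 95% intervals without TMM factors, and a group without counts was set at 3 in total. Exon lengths are unions from GENCODE. Alternatives were RLE factors, library size alone, DESeq2 1.42.0, limma-voom (limma 3.58.1), no filter, only the libraries compared, the replicate number as a block, omission of Vector replicate 3 and mut-FTO replicate 2, and each library left out, 17 for each result.

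The members, the pathway lists and the marker lists were chosen with earlier results of these data known. All ETS genes are named, then for each list at most 4 called genes of lowest p, and the 5 genes most correlated with FLI1 and with ETV1. Not every gene so selected is reported here. Other called genes of the pathway lists (SPRED1, SPRY2, EPHA4, DUSP5, MMP3) and TP63, CDH5, CD14, CIC, COP1, MAPK3, DET1, GABPB1, CBFB, MAP2K1, TRIB1, LCN2, FOS and EGR1 were named after their values were seen. So were EGFL7, KDR, EPHA2, FLG, KRT8, TGFBR2, CLDN4 and CLDN7. Of 131 listed genes, 128 matched by symbol and 3 by an older symbol. Promoter sequences are those of RefSeq, GRCh38.p14.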

Additional observations from a re-analysis of the deposited data

How the results depend on the processing

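Of 408 member fold changes (24 values under 17 alternatives each), 370 kept their direction and side of the threshold, 22 lost a call, 12 gained one and 4 changed sign. The 4 were in FTO against Vector and small: ETS2 at 0.036 without Vector replicate 2 (−0.069 to 0.036 with 1 library left out), ELF3 at −0.224 without Vector replicate 3 (−0.224 to 0.37) and −0.215 without it and mut-FTO replicate 2, and EHF at −0.055 without Vector replicate 1 (−0.055 to 0.344, and 0.353 without Vector replicate 3 and mut-FTO replicate 2). The cause was not tested. Gene counts moved more. In FTO against Vector, 102 genes were called, 366 with DESeq2, 41 with only the 6 libraries compared, 1050 without Vector replicate 3 and mut-FTO replicate 2, and 27 to 476 with 1 library left out. There the member count of 0 became 2 with DESeq2, 3 without both libraries and 0 to 1 with 1 left out; the count of 0 for the other ETS genes became 1 and 0 to 1 in the last 2 of these settings, and the 4 pathway genes became 8, 20 and 2 to 13. In mut-FTO against Vector, 1067 genes became 1680 with DESeq2, 621 with 6 libraries, 2401 without both and 609 to 2089 with 1 left out. The 5 members became 3 with 6 libraries, 7 without both and 3 to 6 with 1 left out, the 1 other ETS gene became 1 to 2 with 1 left out, and the 18 pathway genes became 30 without both. In FTO against mut-FTO, 319 genes became 751 with DESeq2, 1218 with 6 libraries, 1196 without both and 71 to 1427 with 1 left out. The 4 members became 2 to 5 with 1 left out, the count of 0 for the other ETS genes became 1 without both and 0 to 2 with 1 left out, and the 11 pathway genes became 19 with 6 libraries, 20 without both and 3 to 23 with 1 left out. Among the fits with 1 library left out, that without Vector replicate 3 called the most genes in all 3 comparisons. The labels do not say what a replicate number stands for, and same-numbered libraries did not deviate together (correlations from −0.127 to 0.106), nor did each library correlate best with its own number. With the replicate block, 67 genes were called in FTO against Vector and 813 in mut-FTO against Vector, and 4 members in the latter, ETS1 being lost. Depth limits ETV1 and ERG, each with at most 14 counts in a library.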
